A study of Mus musculus with 16 samples.

Results

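The 32 genes described here encode the glucose transporter, enzymes and lactate transporters of glycolysis together with genes that cells are known to switch on when oxygen is low. They were chosen by symbol, and all 32 were found among the 46348 genes of the count table. Of these, 31 passed the low-count filter and were tested. The other one, Adm, which encodes the secreted peptide adrenomedullin, had 0 to 8 counts per library and was not tested. The cells were MEC1, an established line of mouse epicardial cells, and poly(A) RNA was sequenced in 16 libraries that form 8 groups of 2. The groups were PRMT1 siRNA with TGF-beta and without it, p53 siRNA with TGF-beta and without it, PRMT1 and p53 siRNA together with TGF-beta and without it, and control siRNA with TGF-beta and without it. Every group, the controls included, received an siRNA, and PRMT1 encodes a protein arginine methyltransferase, while p53 is encoded by Trp53 in the mouse. The dose and time of TGF-beta and the amount of siRNA are not given in the sources used here. The design note calls the 2 libraries of a group biological replicates without saying that they came from separate cultures, so p-values measure the spread between these libraries, which may be technical.

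Glycolysis turns glucose into pyruvate through a chain of cytosolic enzymes, and lactate dehydrogenase with the monocarboxylate transporters SLC16A1 and SLC16A3 carries the end product out as lactate. Hexokinase and phosphofructokinase control entry into the chain, and PFKFB enzymes make or remove the sugar phosphate that activates phosphofructokinase. When oxygen is plentiful, the EGLN prolyl hydroxylases mark HIF alpha subunits for destruction through VHL, and when it falls, HIF switches on many of these enzymes together with Vegfa, Bnip3, Car9 and the EGLN genes themselves. Epicardial cells are known to leave their epithelial sheet and become mesenchymal under TGF-beta.

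The deposited counts came to between 19617874 and 30759317 per library. The targeted genes went the way of their labels: Prmt1 averaged 75.8 CPM (read counts scaled to library size, with TMM factors) under PRMT1 siRNA and 158 CPM under control siRNA, and Trp53 averaged 54.8 CPM under p53 siRNA and 136 CPM under control siRNA, both without TGF-beta. Under both siRNAs without TGF-beta Trp53 averaged 89.4 CPM and Prmt1 73.1 CPM. The 10 epicardial and mesothelial markers summed to 309.4 to 355.1 CPM with TGF-beta and 1080 to 1502 CPM without it. The highest of them, Upk3b, averaged 24.3 CPM with TGF-beta and 573.5 CPM without under control siRNA. At the threshold given below, 5 of the 10 were lower and 0 higher with TGF-beta under PRMT1 siRNA. Under control siRNA and under p53 siRNA 7 were lower and 1 higher, and under both siRNAs 8 and 1. Of all genes, 16.2% to 22.0% were lower and 15% to 23.3% higher. Endothelial, cardiomyocyte and haematopoietic marker lists stayed at or under 4.20 CPM in every library, with the endothelial marker Tie1 at 0 in all 16. p53 siRNA plus TGF-beta replicate 2 stood apart from its partner: the root mean square log2 difference between the 2 libraries of that group was 0.468 over the members, against 0.138 to 0.208 in the other 7 groups. In that library short genes were high relative to long ones by 0.63 on the log2 scale, where the other 15 libraries lay between -0.23 and 0.23. Counts of calls and the values of some genes are given with and without it. Other p53 siRNA values with TGF-beta, such as those of Pdk1, Eno2 and Bnip3, are given with it only.

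Expression of the members per kilobase of transcript ranged widely. Gapdh, glyceraldehyde-3-phosphate dehydrogenase, led with a mean of 1377 CPM per kb over the 16 libraries, followed by pyruvate kinase Pkm at 689, Eno1 at 413 and Pgam1 at 354 CPM per kb. Pgam1 ranged from 295 to 419 and Aldoa, which came next, from 276 to 437 CPM per kb, so their order does not hold beyond the spread between libraries. The regulated entry steps lay far lower, with Hk2 at 14.6, Hk1 at 13.4, Pfkl at 21.6 and Pfkfb3 at 16.8 CPM per kb. Of the hypoxia-responsive members, the collagen prolyl hydroxylase P4ha1 was highest at 63.0 CPM per kb and Vegfa followed at 43.3 CPM per kb. Car9, Aldoc and Adm, at 0.493, 0.269 and 0.0878 CPM per kb, were the lowest.

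HIF is known to bind DNA at a short core, and the RefSeq promoter windows (250 bases before to 50 after each start, GRCm38.p6) of the members were searched on both strands for ACGTG and GCGTG, which also covers the palindromic E-box CACGTG. RefSeq windows were found for 31 of the 32 members, 45 in all, and 36 of the 45 held a match, against 43.8% of all 32851 windows. Member windows were also richer in CG pairs, with a median of 20 against 7 in all windows. Among windows whose CG count lay between the members' lower and upper quartiles 65.8% held a match. Member windows outside that range are among the 36 of 45, so these shares cover unlike windows. Some members have several windows, and some of these overlap. A match is a description of letters and shows no binding. Shown are 5 members chosen after their values were seen, because they differed between groups and their windows hold at least 1 match. The capitals mark the matches, and the last 50 bases of each line follow the start site.
Slc16a1, chr3:104638414-104638713, + strand: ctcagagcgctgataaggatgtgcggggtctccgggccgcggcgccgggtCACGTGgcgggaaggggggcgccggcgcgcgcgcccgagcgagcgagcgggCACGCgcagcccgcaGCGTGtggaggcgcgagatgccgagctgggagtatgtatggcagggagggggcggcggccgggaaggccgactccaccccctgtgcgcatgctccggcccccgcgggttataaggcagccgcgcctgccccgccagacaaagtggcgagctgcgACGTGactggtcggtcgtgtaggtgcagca
Pdk1, chr2:71872974-71873273, + strand: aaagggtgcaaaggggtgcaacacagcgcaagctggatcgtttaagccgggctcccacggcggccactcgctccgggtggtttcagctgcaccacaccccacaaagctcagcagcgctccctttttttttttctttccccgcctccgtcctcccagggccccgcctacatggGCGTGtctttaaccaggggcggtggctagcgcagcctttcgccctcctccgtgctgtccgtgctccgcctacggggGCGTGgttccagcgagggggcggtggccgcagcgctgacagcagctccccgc
Bnip3, chr7:138909457-138909756, - strand: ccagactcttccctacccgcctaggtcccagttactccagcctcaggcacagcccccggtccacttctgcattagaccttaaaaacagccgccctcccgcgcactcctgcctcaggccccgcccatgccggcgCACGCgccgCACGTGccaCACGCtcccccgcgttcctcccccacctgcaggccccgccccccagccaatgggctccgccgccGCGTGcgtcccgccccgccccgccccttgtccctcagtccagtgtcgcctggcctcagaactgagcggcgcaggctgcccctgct
Hk2, chr6:82774405-82774704, - strand: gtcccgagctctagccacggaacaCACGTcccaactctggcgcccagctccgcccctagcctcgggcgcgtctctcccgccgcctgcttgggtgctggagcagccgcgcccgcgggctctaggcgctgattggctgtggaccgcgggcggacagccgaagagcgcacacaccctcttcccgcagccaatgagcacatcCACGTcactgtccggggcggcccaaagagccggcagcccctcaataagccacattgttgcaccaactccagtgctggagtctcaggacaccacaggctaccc
Pfkfb3, inner start, chr2:11502041-11502340, - strand: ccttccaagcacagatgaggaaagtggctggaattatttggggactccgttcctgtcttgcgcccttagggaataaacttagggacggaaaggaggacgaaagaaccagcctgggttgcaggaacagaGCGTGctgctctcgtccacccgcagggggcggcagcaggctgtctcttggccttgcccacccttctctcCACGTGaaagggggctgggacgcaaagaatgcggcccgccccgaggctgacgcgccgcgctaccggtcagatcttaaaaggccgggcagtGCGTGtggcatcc
Pfkfb3, outer start, chr2:11553880-11554179, - strand: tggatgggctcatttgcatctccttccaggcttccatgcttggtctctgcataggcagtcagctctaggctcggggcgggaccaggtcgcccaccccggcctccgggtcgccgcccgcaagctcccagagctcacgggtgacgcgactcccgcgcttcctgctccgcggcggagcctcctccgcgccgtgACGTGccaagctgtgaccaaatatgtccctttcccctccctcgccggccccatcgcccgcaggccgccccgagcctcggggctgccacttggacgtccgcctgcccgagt
Counted on each strand, the Slc16a1 and Bnip3 windows hold 5 matches each and the inner Pfkfb3 window 4, and all 3 include the E-box CACGTG, which counts on both strands. The outer Pfkfb3 window holds 1 match. Pdk1 and Hk2 hold 2 each in the windows shown, and a second Pdk1 window holds 0. The outer Vegfa window holds 0 and its inner one 2. Of these members, Slc16a1 and Pdk1 were lower and Hk2 was higher with TGF-beta under every siRNA.

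TGF-beta changed the members in both directions, with Slc16a1 lowered and Vegfa raised under every siRNA. A member was called when its Benjamini-Hochberg adjusted p over all 15494 genes tested was under 0.05 in edgeR's quasi-likelihood test. Under PRMT1 siRNA 11 of 31 members were called (7 higher and 4 lower), where 32.5% of all genes tested were called, 16.3% higher and 16.2% lower. Under p53 siRNA 19 were called (6 higher and 13 lower) beside 45.3% of all genes, 23.3% higher and 22.0% lower. Under both siRNAs 10 were called (5 higher and 5 lower) beside 31.3%, 15% higher and 16.3% lower. Under control siRNA 14 were called (5 higher and 9 lower) beside 38.4%, 17.8% higher and 20.6% lower. The median log2 change of the members was 0.20 under PRMT1 siRNA, -0.16 under p53 siRNA, 0.03 under both siRNAs and 0.01 under control siRNA, and over all genes tested it lay between -0.02 and 0.02. Without p53 siRNA plus TGF-beta replicate 2 the counts were 20, 21, 17 and 19 of 31, beside 50.5%, 46.1%, 47.4% and 52.1% of all genes, under PRMT1, p53, both and control siRNA. Among the p53 siRNA calls, 11 were lost when only the groups of the contrast were fitted (Egln1, Egln3, Hk1, Hk2, P4ha1, P4ha2, Pfkfb3, Pfkfb4, Pfkm, Pfkp and Tpi1; adjusted p = 0.0983 to 0.381). Over the 4 responses, 12 calls were lost without the low-count filter, those of Pfkp under PRMT1 siRNA, Egln3, Hk1, P4ha1, P4ha2, Pfkfb4 and Pfkm under p53 siRNA, Ndrg1, Pdk1, Pfkm and Pfkp under both siRNAs and Hk1 under control siRNA (adjusted p = 0.0592 to 0.202). DESeq2 did not call Aldoc under PRMT1 siRNA (adjusted p = 0.0909) or Egln3 and Pfkfb4 under p53 siRNA (adjusted p = 0.0781 and 0.124), and offsets for transcript length ended the calls of P4ha2 under p53 siRNA (adjusted p = 0.226) and Hk1 under control siRNA (adjusted p = 0.0709). In bulk samples, fewer cells of a type and less RNA per cell cannot be told apart.

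The 4 responses share no libraries, and 8 members were called in the same direction in all of them. Hk1, Hk2, Pfkp, Vegfa and Egln1 were higher with TGF-beta under every siRNA, as were 9.0% of all genes tested. Slc16a1, Pdk1 and Eno2 were lower under every siRNA, as were 9.93% of all genes. No call in any of the 4 was made for 10 members, Slc2a1, Pfkl, Aldoa, Gapdh, Pgk1, Eno1, Pkm, Ldha, Slc16a3 and Ankrd37, which compares with 40.1% of all genes. Without p53 siRNA plus TGF-beta replicate 2, a fit that takes the lone library left in that group to vary like the other groups, 8 of those 10 were called in at least 1 response, and Pgk1 and Ankrd37 were not. The members called in none were then 3 of 31, these and Pfkfb4, beside 24.7% of all genes. The same 5 members were higher in all 4 responses, beside 12.1% of all genes, and Pfkm joined the 3 that were lower, beside 12.6%.

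**Figure D1:**
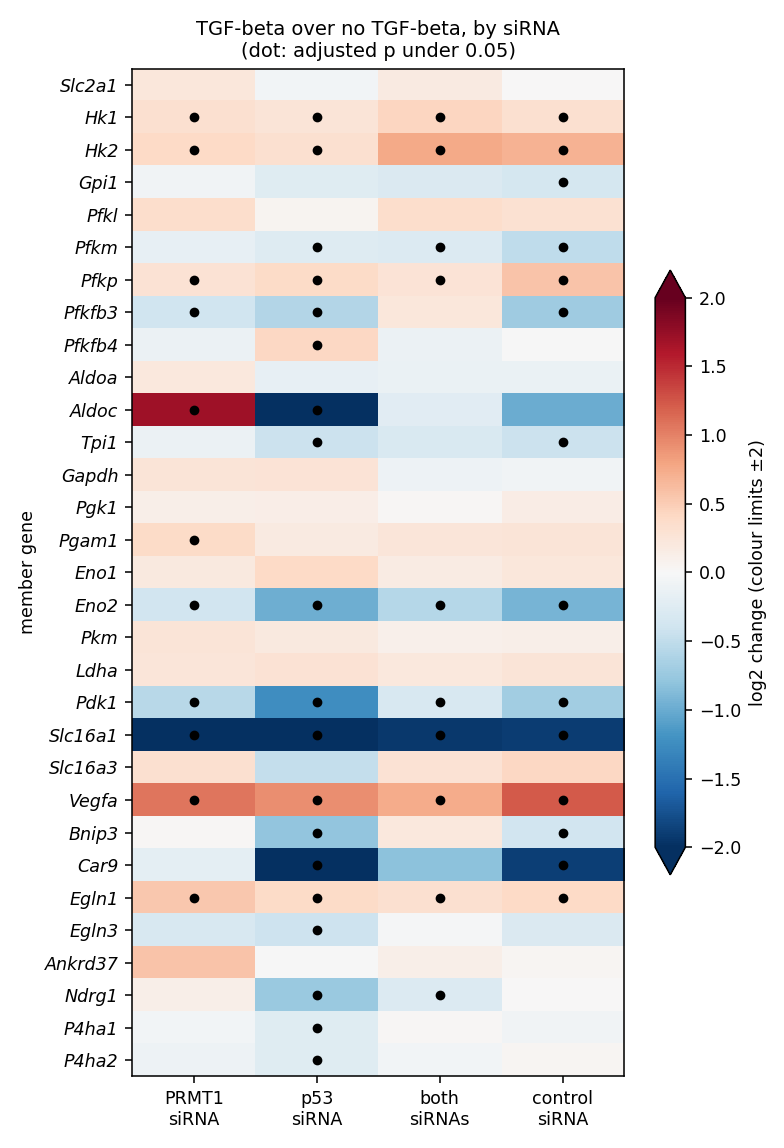
Log2 change with TGF-beta over no TGF-beta for the 31 tested members (rows) under each siRNA (columns), red for higher and blue for lower with TGF-beta, with a dot where the adjusted p was under 0.05. Slc16a1, at -1.90 to -2.06, is dark blue and Vegfa, at 0.74 to 1.22, is red in every column, while most rows of the lower glycolytic chain are pale.

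The lactate transporter gene Slc16a1 (chr3:104638668-104658462, + strand, mm10) had the lowest log2 changes of the members tested at more than 5 CPM. It had 66.9 and 68.5 CPM in the 2 libraries of control siRNA with TGF-beta, against 256 and 250.2 CPM without TGF-beta. Under PRMT1 siRNA the values were 75.6 and 76.5 CPM with TGF-beta and 309.7 and 307 CPM without, under p53 siRNA 72.2 and 70.2 CPM with and 304 and 292 CPM without, and under both siRNAs 90.0 and 86.6 CPM with and 355 and 318 CPM without. All 8 libraries with TGF-beta lay below all 8 without it, by a wide margin. The log2 change was -2.02 ± 0.07 (SE), adjusted p = 3.29e-09 under PRMT1 siRNA. It was -2.06 ± 0.07 (SE), adjusted p = 1.27e-09 under p53 siRNA, -1.93 ± 0.07 (SE), adjusted p = 4.21e-09 under both siRNAs, and -1.90 ± 0.07 (SE), adjusted p = 2.85e-09 under control siRNA, and all 4 calls were kept in every alternative tried. The other lactate transporter, Slc16a3, which is known from cells that export lactate, was not called in any of the 4 responses, with log2 changes from -0.48 to 0.41. It was called in all 4 when p53 siRNA plus TGF-beta replicate 2 was left out, at 0.32 under PRMT1 siRNA, -0.86 under p53 siRNA, 0.29 under both and 0.40 under control siRNA (adjusted p = 0.0283, 2.01e-04, 0.0281 and 0.0120). It had 13.1 and 14.9 CPM under control siRNA with TGF-beta and 11.7 and 9.38 CPM without.

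At the entry to glycolysis both hexokinase genes rose. Hk2 (chr6:82725025-82774454, - strand), the inducible hexokinase, had 107 and 104 CPM with TGF-beta under control siRNA, against 62.7 and 67.7 CPM without it. Under both siRNAs it had 103 and 103 CPM with TGF-beta and 61.0 and 60.8 CPM without, under PRMT1 siRNA 85.7 and 88.7 CPM with and 67.0 and 65.9 CPM without, and under p53 siRNA 97.9 and 73.3 CPM with and 71.6 and 65.2 CPM without. Every library with TGF-beta was above every library without it, the closest being p53 siRNA plus TGF-beta replicate 2. The log2 change was 0.76 ± 0.11 (SE), adjusted p = 2.46e-04 under both siRNAs and 0.69 ± 0.11 (SE), adjusted p = 3.76e-04 under control siRNA. It was 0.39 ± 0.11 (adjusted p = 0.0175) under PRMT1 siRNA and 0.33 ± 0.11 (adjusted p = 0.0311) under p53 siRNA, the second of which was 0.52 ± 0.07 (adjusted p = 2.32e-05) without p53 siRNA plus TGF-beta replicate 2. The PRMT1 siRNA call was lost when any 1 of its 4 libraries was left out (adjusted p = 0.0594 to 0.0926). The p53 siRNA call was lost without p53 siRNA plus TGF-beta replicate 1, or without either p53 siRNA library lacking TGF-beta (adjusted p = 0.0545 to 0.205). Hk1, the hexokinase of most tissues, rose by 0.32 under PRMT1 siRNA, 0.26 under p53 siRNA, 0.43 under both and 0.31 under control siRNA on the log2 scale. Leaving out either p53 siRNA library without TGF-beta took the p53 siRNA call of Hk1 just past the threshold (adjusted p = 0.0503 and 0.0648). With length offsets the p53 siRNA value was 0.42. The glucose transporter Slc2a1 was not called in any response, with 48.1 and 47.9 CPM with TGF-beta and 48.0 and 47.1 CPM without under control siRNA.

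The 3 phosphofructokinase genes, which encode the platelet, muscle and liver forms, did not move together. Pfkp had 48.2 and 55.4 CPM with TGF-beta and 34.8 and 34.8 CPM without under control siRNA, a log2 change of 0.57 ± 0.08 (SE), adjusted p = 1.86e-04, and rose by 0.29, 0.39 and 0.27 under PRMT1, p53 and both siRNAs. With both siRNAs the Pfkp call was lost on leaving out any 1 of the 4 libraries (adjusted p = 0.0558 to 0.152) and with length offsets, where the log2 change was 0.10. With PRMT1 siRNA it was likewise lost on leaving out any 1 library (adjusted p = 0.0659 to 0.126). Of the exon bases of Pfkp, 748 overlap Pitrm1 on the opposite strand. Over the 16 libraries Pitrm1 had 65900 counts and Pfkp 17811. The strand setting of the counting is not given, so the counts of Pfkp are uncertain. Pfkm had 38.6 and 37.5 CPM with TGF-beta and 54.1 and 53.5 CPM without under control siRNA, and its log2 change was -0.50 ± 0.07 (SE), adjusted p = 1.12e-04. It also fell by 0.26 under p53 siRNA and by 0.27 under both siRNAs. These calls were lost without replicate 2 of p53 siRNA lacking TGF-beta (adjusted p = 0.0539), and on leaving out any 1 library of both siRNAs (adjusted p = 0.0613 to 0.111). The p53 siRNA value of Pfkm was -0.17 without p53 siRNA plus TGF-beta replicate 1. With length offsets the rise of Pfkp was 0.51 under PRMT1 siRNA and 0.69 under p53 siRNA. Pfkl was not called in any response, with log2 changes from 0.05 to 0.35. Its change under p53 siRNA without p53 siRNA plus TGF-beta replicate 2 was -0.24 (adjusted p = 0.0567), and -0.26 with length offsets too (adjusted p = 0.0472). In the same fit without offsets it was called higher by 0.35 under PRMT1 siRNA, 0.35 under both and 0.29 under control siRNA.

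Pfkfb3, the PFKFB enzyme that makes the activator of phosphofructokinase (chr2:11471433-11554077, - strand), fell with TGF-beta under 3 of the 4 siRNA treatments. It had 75.04 and 76.2 CPM with TGF-beta and 99.8 and 98.7 CPM without under PRMT1 siRNA, and 63.6 and 50.7 CPM with and 84.8 and 87.2 CPM without under p53 siRNA. Control siRNA gave 56.3 and 59.7 CPM with TGF-beta and 91.6 and 98.7 CPM without. In these 3 pairs of groups the libraries with TGF-beta lay below those without. Under both siRNAs the order turned, with 92.1 and 93.6 CPM with TGF-beta and 77.1 and 81.9 CPM without, and the log2 change of 0.22 ± 0.09 was not called (adjusted p = 0.0950), although it was without p53 siRNA plus TGF-beta replicate 2 (0.22 ± 0.05, adjusted p = 0.00367). The called log2 changes were -0.39 ± 0.09 (SE), adjusted p = 0.00785 under PRMT1 siRNA, -0.59 ± 0.10 (SE), adjusted p = 3.52e-04 under p53 siRNA, and -0.71 ± 0.10 (SE), adjusted p = 9.67e-05 under control siRNA. Without replicate 1 of PRMT1 siRNA with TGF-beta the PRMT1 siRNA call was lost (adjusted p = 0.0587). Pfkfb4, a low-level relative at 3.30 to 6.09 CPM, was called higher in the p53 siRNA response only (log2 change 0.41 ± 0.16 (SE), adjusted p = 0.0479), and not without p53 siRNA plus TGF-beta replicate 2 (adjusted p = 0.223) or without either p53 siRNA library lacking TGF-beta (adjusted p = 0.112 and 0.181).

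**Figure D2:**
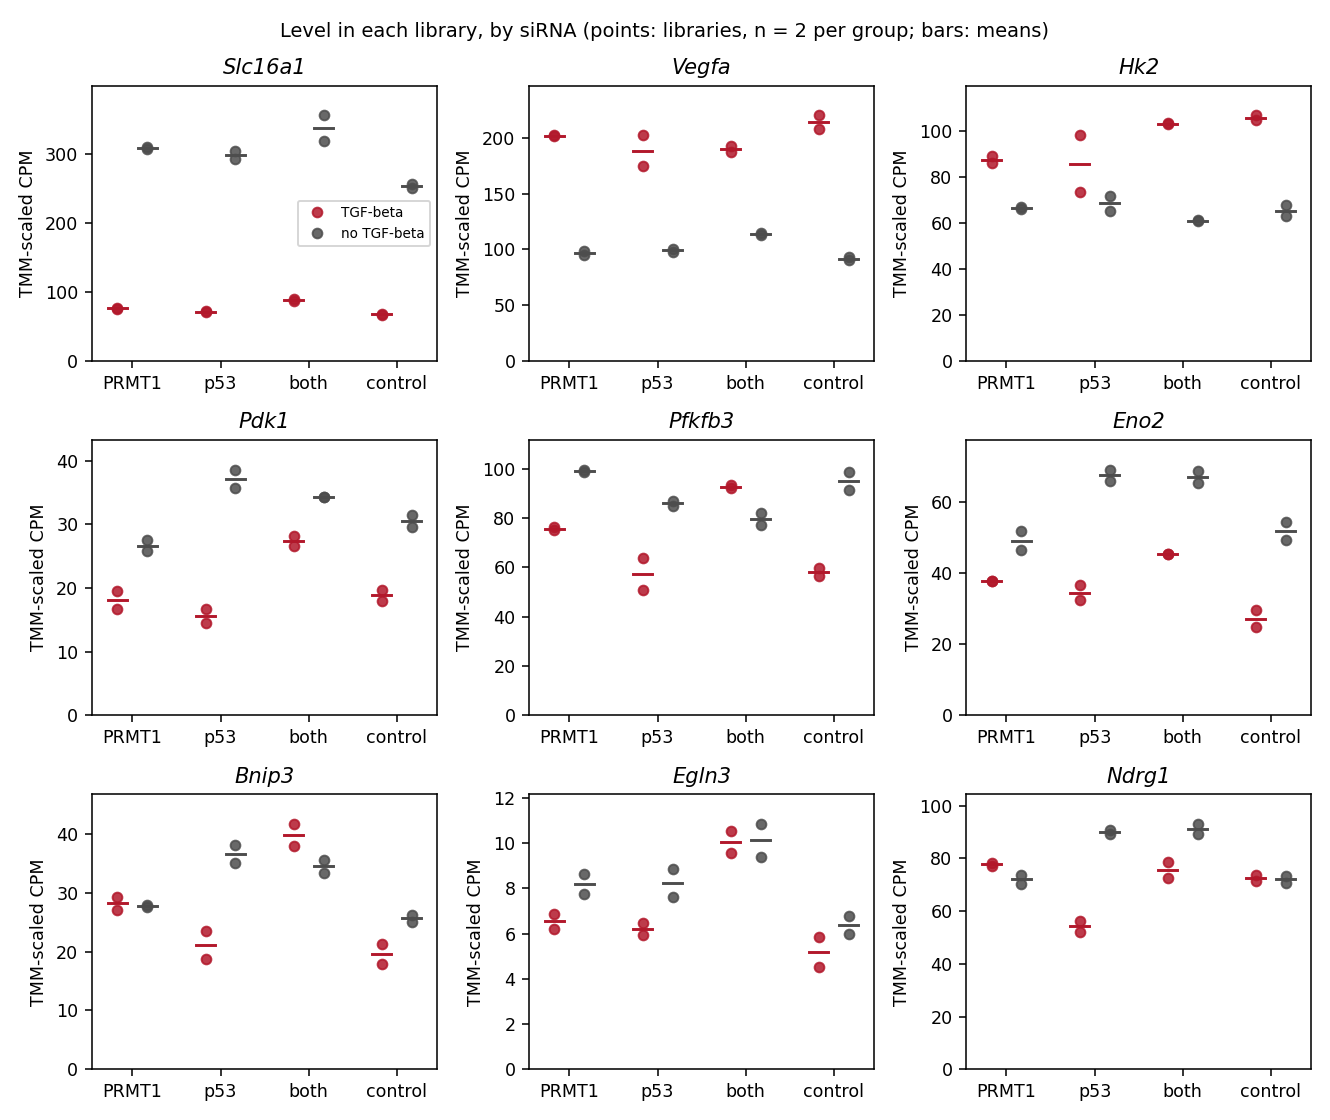
TMM-scaled CPM of 9 members in each library (points) with the group mean (bar), TGF-beta in red left of no TGF-beta in grey for each siRNA. Slc16a1 shows 66.9 to 90.0 CPM with TGF-beta against 250.2 to 355 CPM without, and Pfkfb3 shows its highest level with TGF-beta, 92.1 and 93.6 CPM, under both siRNAs.

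Pdk1 and Eno2 fell with TGF-beta under every siRNA. Pdk1 (chr2:71873224-71903858, + strand), the kinase that shuts off pyruvate dehydrogenase, had 16.7 and 14.6 CPM with TGF-beta and 38.6 and 35.7 CPM without under p53 siRNA, and 18.0 and 19.7 CPM with and 29.6 and 31.5 CPM without under control siRNA. Under PRMT1 siRNA it had 16.7 and 19.6 CPM with and 25.9 and 27.5 CPM without, and under both siRNAs 28.2 and 26.6 CPM with and 34.4 and 34.4 CPM without. Within each siRNA the libraries with TGF-beta were lower, and the smallest gap was under both siRNAs. The log2 changes were -1.25 ± 0.10 (SE), adjusted p = 1.17e-06 under p53 siRNA, -0.55 ± 0.10 (SE), adjusted p = 0.00118 under PRMT1 siRNA, -0.33 ± 0.10 (SE), adjusted p = 0.0216 under both siRNAs and -0.69 ± 0.10 (SE), adjusted p = 1.66e-04 under control siRNA. The call under both siRNAs was lost on leaving out any 1 of its 4 libraries (adjusted p = 0.0658 to 0.159). Eno2, the neuronal enolase, had 24.9 and 29.4 CPM with TGF-beta and 54.4 and 49.2 CPM without under control siRNA. Its log2 changes were -0.38 ± 0.10 under PRMT1 siRNA, -0.97 ± 0.10 under p53 siRNA, -0.56 ± 0.09 under both siRNAs and -0.93 ± 0.10 under control siRNA. The PRMT1 siRNA call of Eno2 was lost without either PRMT1 siRNA library with TGF-beta (adjusted p = 0.0663 and 0.0682) or without replicate 2 lacking it (adjusted p = 0.117).

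The 9 abundant enzymes of the common chain were glucose phosphate isomerase (Gpi1), aldolase (Aldoa), triose phosphate isomerase (Tpi1), Gapdh, phosphoglycerate kinase (Pgk1) and mutase (Pgam1), enolase (Eno1), pyruvate kinase (Pkm) and lactate dehydrogenase (Ldha). Of the 9, 1 was called under PRMT1 siRNA, 1 under p53 siRNA and 2 under control siRNA, beside 32.5%, 45.3% and 38.4% of all genes. Under both siRNAs, where 31.3% of all genes were called, edgeR called 0 of the 9, with 1 at an unadjusted p under 0.05, and DESeq2 called 1. The counts without p53 siRNA plus TGF-beta replicate 2 were 6, 3, 4 and 5 of 9 under PRMT1, p53, both and control siRNA, beside the 50.5%, 46.1%, 47.4% and 52.1% of all genes given above. Their levels summed to 8014 and 8150.5 CPM under PRMT1 siRNA with TGF-beta, 6147 and 9346 CPM under p53 siRNA with TGF-beta, 7935 and 7413 CPM under both siRNAs with TGF-beta, and 6702 and 6929.8 CPM under control siRNA with TGF-beta. Without TGF-beta the sums lay between 6259.8 and 8024 CPM. The highest and the lowest of all 16 sums belonged to the 2 libraries of p53 siRNA with TGF-beta, so the spread within that group was wider than any difference between group means. Tpi1 was called lower under p53 siRNA (-0.43 ± 0.16, adjusted p = 0.0414) and control siRNA (-0.43 ± 0.16, adjusted p = 0.0451). The control siRNA call was lost on leaving out any 1 of its 4 libraries (adjusted p = 0.0578 to 0.255). The p53 siRNA call was lost without p53 siRNA plus TGF-beta replicate 1 or without either p53 siRNA library lacking it (adjusted p = 0.109 to 0.174), and the change was -0.77 ± 0.10 (adjusted p = 1.47e-05) without p53 siRNA plus TGF-beta replicate 2. Gpi1 was called lower under control siRNA (-0.36 ± 0.11, adjusted p = 0.0255), but not without either control library with TGF-beta or replicate 1 lacking it (adjusted p = 0.103 to 0.164). Pgam1 was called higher under PRMT1 siRNA (0.39 ± 0.12, adjusted p = 0.0266), and not when any 1 of the 4 libraries was left out (adjusted p = 0.0877 to 0.153).

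The summed level of these enzymes moved with a measure of transcript length in each library, the mean log2 deviation of short genes minus that of long genes. This measure was 0.63 and the sum 9346 CPM in p53 siRNA plus TGF-beta replicate 2, and -0.18 and 6147 CPM in its partner. Both libraries of PRMT1 siRNA with TGF-beta had values above 0 (0.17 and 0.12), and both of control siRNA with TGF-beta had values below 0 (-0.23 and -0.21). Both siRNAs with TGF-beta had -0.06 and -0.18, beside sums of 7935 and 7413 CPM. With PRMT1 siRNA against control siRNA, both with TGF-beta, the log2 change of Gapdh was 0.46 ± 0.20 (adjusted p = 0.129). It was 0.41 with offsets that remove the length trend and without the library that stood apart. Both changes were made at once, so their parts in that value cannot be told apart. The part of the length trend in the levels of these enzymes was not tested. Gapdh has 73 near copies in the count table, at 95% identity or more over at least 300 bases, and their counts came to 59.0% of its own, while those of the 2 near copies of Eno1 came to 32.8%. Counts of both genes are therefore uncertain.

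**Figure D3:**
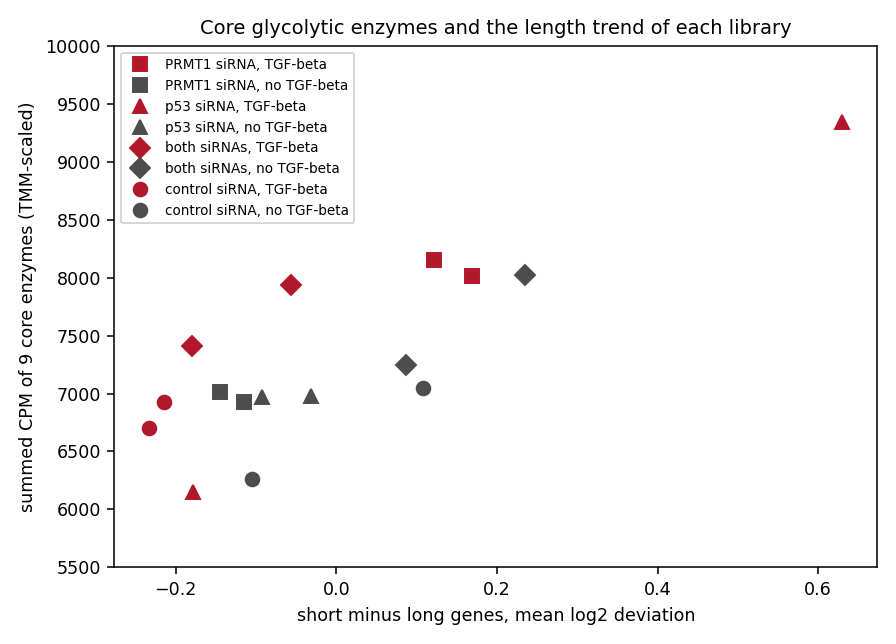
Summed TMM-scaled CPM of 9 core enzymes (vertical axis, which does not start at 0) against the mean log2 deviation of short minus long genes (horizontal axis) in each of the 16 libraries. The single point at 0.63 and 9346 CPM is p53 siRNA plus TGF-beta replicate 2, far from its partner at -0.18 and 6147 CPM.

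Among the hypoxia-responsive members, Vegfa and Egln1 rose with TGF-beta under every siRNA. Vegfa (chr17:46016993-46032377, - strand), the vascular endothelial growth factor gene, had 208 and 220.2 CPM with TGF-beta and 90.4 and 93.2 CPM without under control siRNA, and 202 and 202 CPM with and 94.8 and 98.5 CPM without under PRMT1 siRNA. Under p53 siRNA it had 202 and 174 CPM with and 101 and 97.5 CPM without, and under both siRNAs 193 and 187 CPM with and 113 and 114 CPM without. All 8 libraries with TGF-beta were above all 8 without it. The log2 change was 1.06 ± 0.08 (SE), adjusted p = 7.82e-07 under PRMT1 siRNA, 0.93 ± 0.08 (SE), adjusted p = 1.54e-06 under p53 siRNA, 0.74 ± 0.08 (SE), adjusted p = 1.60e-05 under both siRNAs and 1.22 ± 0.08 (SE), adjusted p = 1.93e-07 under control siRNA, and all 4 calls held in every alternative. The difference between the responses under both siRNAs and under control siRNA, -0.48 ± 0.11, did not pass the threshold (adjusted p = 0.0649). Egln1, the main oxygen-sensing hydroxylase, rose by 0.55 under PRMT1 siRNA, 0.38 under p53 siRNA, 0.32 under both and 0.40 under control siRNA, on the log2 scale. The p53 siRNA value was 0.21 (adjusted p = 0.0228) without p53 siRNA plus TGF-beta replicate 2. Under both siRNAs that call was lost on leaving out any 1 of 4 libraries (adjusted p = 0.0576 to 0.138), and under control siRNA without replicate 2 lacking TGF-beta (adjusted p = 0.0775).

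Other hypoxia-responsive members fell or were not called. Bnip3 (chr7:138890836-138909519, - strand), a mitochondrial protein that promotes mitophagy, had 18.7 and 23.6 CPM with TGF-beta and 38.1 and 35.1 CPM without under p53 siRNA, and 17.8 and 21.3 CPM with and 26.2 and 25.1 CPM without under control siRNA. It fell in both, by 0.79 (adjusted p = 1.70e-04) and by 0.39 (adjusted p = 0.0209) on the log2 scale. The control siRNA call was lost without either control library lacking TGF-beta or without replicate 1 with it (adjusted p = 0.0592 to 0.186). Under PRMT1 siRNA Bnip3 had 27.2 and 29.4 CPM with TGF-beta and 27.5 and 28.0 CPM without, and under both siRNAs 41.8 and 38.0 CPM with and 35.7 and 33.4 CPM without, neither of them called. Car9, the cell-surface carbonic anhydrase, had 7 and 9 counts with TGF-beta and 44 and 53 without under p53 siRNA, and 7 and 9 with and 39 and 23 without under control siRNA. Both falls were called, at -2.37 ± 0.37 (adjusted p = 2.88e-04) and -1.89 ± 0.39 (adjusted p = 0.00222), on very few counts. With all 16 libraries, Aldoc, the brain aldolase, was the only member called in both directions, higher under PRMT1 siRNA and lower under p53 siRNA. Its calls also rested on few counts. It had 6 and 16 counts with TGF-beta and 2 and 4 without under PRMT1 siRNA, a call that was lost without replicate 2 with TGF-beta (adjusted p = 0.436) or without either library lacking it (adjusted p = 0.243 and 0.0768). Under p53 siRNA the counts were 9 and 7 with TGF-beta and 82 and 64 without, a fall of 2.98 on the log2 scale (adjusted p = 1.07e-04).

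The remaining members were called in at most 2 of the 4 responses. Ndrg1, a stress-responsive gene that hypoxia is known to raise, fell under p53 siRNA by 0.73 (adjusted p = 4.28e-06) and under both siRNAs by 0.27 (adjusted p = 0.00953) on the log2 scale. The second of these was lost without replicate 2 of both siRNAs, with TGF-beta (adjusted p = 0.151) or lacking it (adjusted p = 0.0746). Egln3, an EGLN hydroxylase gene that is itself a HIF target, and the collagen hydroxylase genes P4ha1 and P4ha2 were called lower under p53 siRNA, at log2 changes of -0.41, -0.24 and -0.24. All 3 calls were lost without replicate 1 of p53 siRNA lacking TGF-beta, where the adjusted p was 0.237 for Egln3, 0.122 for P4ha1 and 0.161 for P4ha2. Without p53 siRNA plus TGF-beta replicate 1, the adjusted p was 0.104 for Egln3 and 0.236 for P4ha2, and P4ha2 was also lost without replicate 2 lacking it (adjusted p = 0.138). The change of P4ha2 was -0.41 (adjusted p = 2.01e-04) when p53 siRNA plus TGF-beta replicate 2 was left out and -0.09 when replicate 1 of that group was. Ankrd37, a small ankyrin protein gene, had 15 to 58 counts per library and no call in any response. It shares exon bases with Lrp2bp and Ufsp2 on the opposite strand, as Car9 does with Gm12454, so reads cannot be assigned with certainty.

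The make-up of several isozyme families differed with TGF-beta, given here as shares of CPM per kb of transcript, as a description without a test. Slc16a3 made up 12.7% to 21.4% of the Slc16a1 and Slc16a3 pair in the 8 libraries with TGF-beta, against 3.69% to 6.42% in the 8 without. Eno2 made up 2.05% to 3.57% of the Eno1 and Eno2 pair with TGF-beta and 4.09% to 6.59% without. Pfkm made up 24.4% to 32.9% of the phosphofructokinases with TGF-beta and 33.1% to 43.5% without. For these shares the ranges with and without TGF-beta did not overlap. How often shares of other genes separate in this way was not tested. Slc16a1 was called lower in all 4 responses, while Slc16a3 was called in none with all 16 libraries. Counts of Eno1 and Pfkp, which enter the sums for Eno2 and Pfkm, are uncertain, as given above. The shares of Hk2 in the hexokinase pair, 49.0% to 57.1% with TGF-beta and 46.7% to 52.8% without, overlapped, as did those of Pfkp, at 22.5% to 27.8% with and 18.2% to 23.3% without. P4ha2 kept much the same share of the collagen hydroxylase pair, at 31.8% to 38.2% with TGF-beta and 31.4% to 37.6% without.

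**Figure D4:**
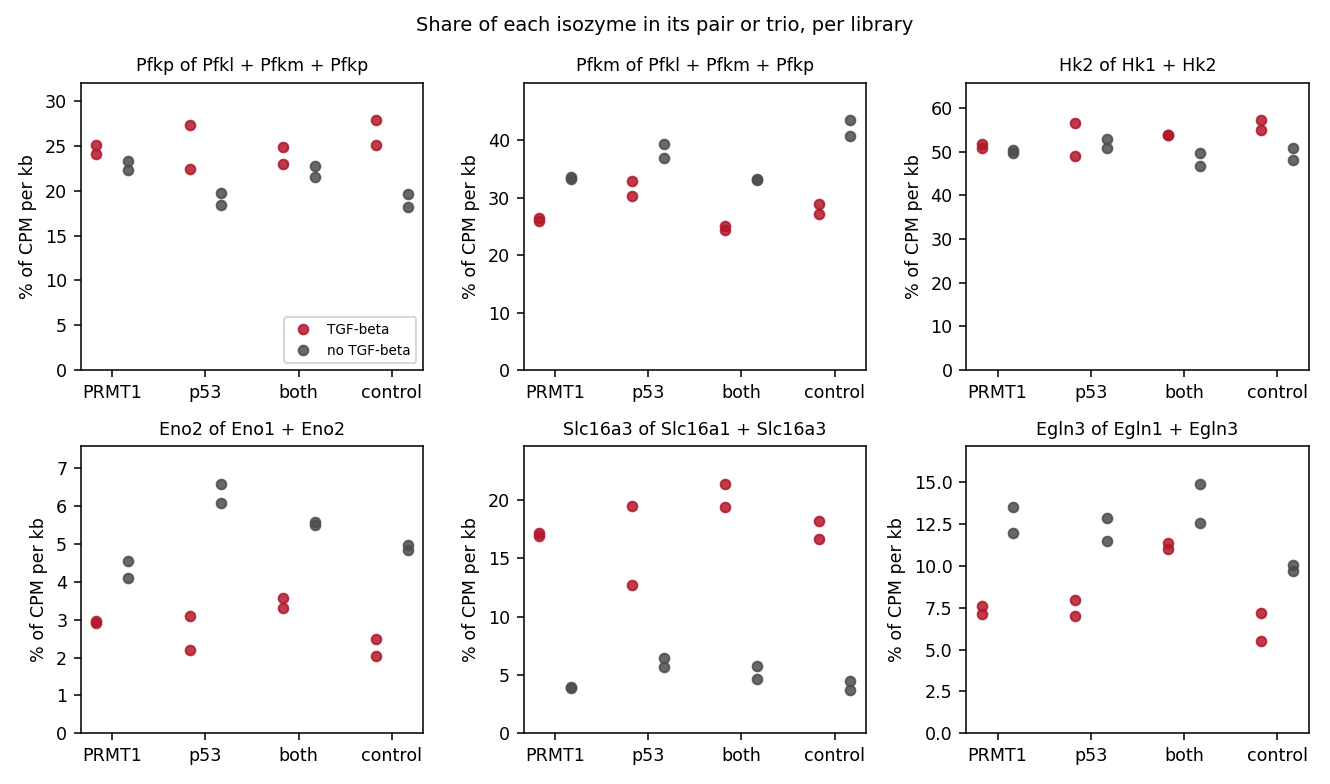
Share of 6 isozymes in the summed CPM per kb of their family (percent, vertical axis) in each library, TGF-beta in red left of no TGF-beta in grey for each siRNA. For Slc16a3 the red points, from 12.7% to 21.4%, lie above all grey points, and for Eno2, from 2.05% to 3.57%, below all of them.

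Each siRNA effect called fewer members than any TGF-beta response, and the 3 siRNA comparisons within each TGF-beta condition share their control libraries. With TGF-beta, PRMT1 siRNA called 3 of 31 members, all higher, where 15.7% of all genes were called, 9.13% higher and 6.53% lower. p53 siRNA with TGF-beta called 1, which was lower, beside 5.21% of all genes, 2.82% higher and 2.39% lower. Both siRNAs with TGF-beta called 7, all higher, beside 13.1%, 7.71% higher and 5.35% lower. Without TGF-beta, PRMT1 siRNA raised 1 and lowered 2 members beside 10.3% of all genes, 4.48% higher and 5.85% lower. p53 siRNA called 4, all higher, beside 2.47%, 1.17% higher and 1.29% lower, and both siRNAs called 6, all higher, beside 4.45%, 2.31% higher and 2.14% lower. The median log2 change of the members under both siRNAs was 0.13 with TGF-beta and 0.17 without it, against 0.01 over all genes tested in each. Without p53 siRNA plus TGF-beta replicate 2 the counts were 10, 2 and 12 of 31 with TGF-beta, for PRMT1, p53 and both siRNAs, beside 41.3%, 4.09% and 29.9% of all genes. They were 5, 8 and 14 without TGF-beta, beside 26.4%, 11.6% and 18.6%. Leaving out replicate 1 of that group instead gave 16 members for p53 siRNA with TGF-beta. Without TGF-beta, fitting only the groups of the contrast ended the calls of Ndrg1, Pfkp, Slc16a1 and Vegfa under both siRNAs (adjusted p = 0.0512 to 0.0738). Dropping the low-count filter ended those of Ndrg1, Pfkp and Vegfa under both siRNAs, Ndrg1 under p53 siRNA and Slc16a1 under PRMT1 siRNA (adjusted p = 0.0649 to 0.192). Length offsets ended the calls of Pfkp under both siRNAs (adjusted p = 0.0799) and Ndrg1 under p53 siRNA (adjusted p = 0.0627), and median-ratio scaling that of Vegfa under both siRNAs (adjusted p = 0.0635).

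**Figure D5:**
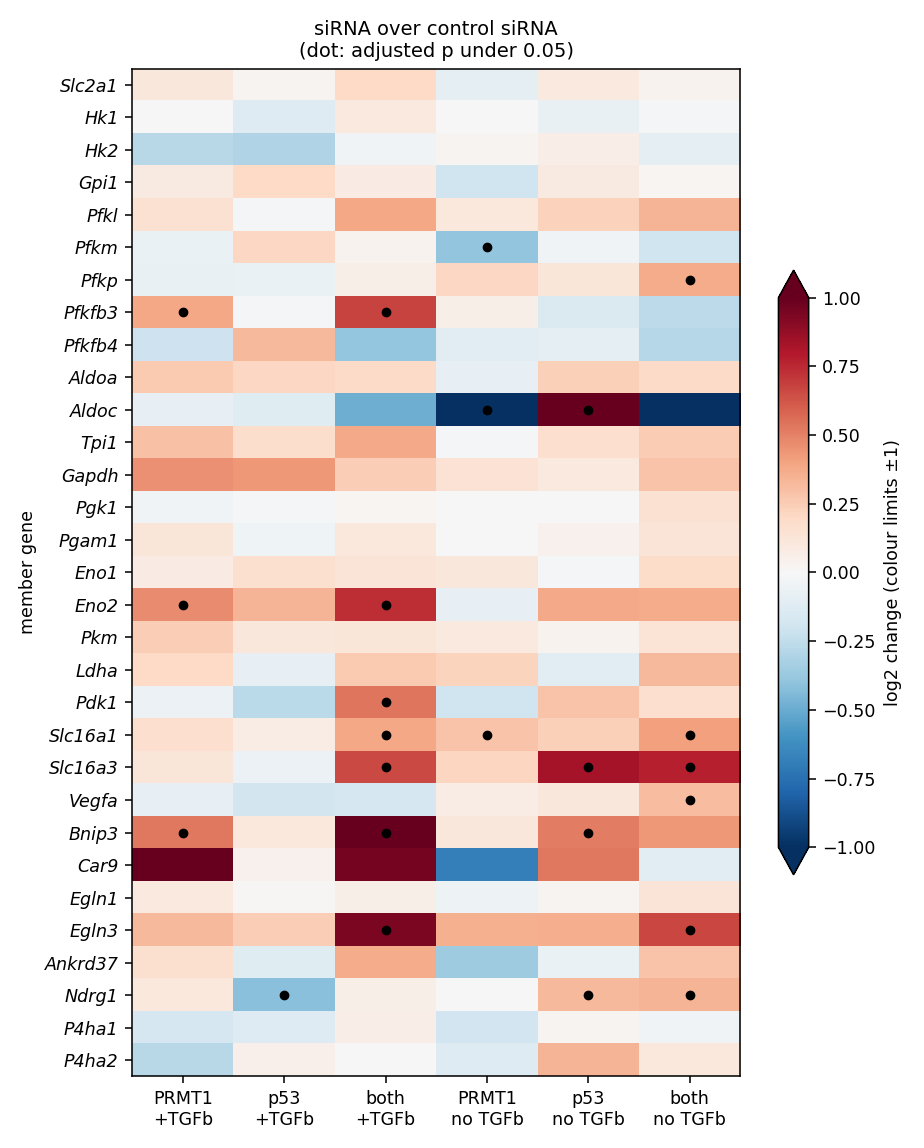
Log2 change of each siRNA treatment over control siRNA for the 31 tested members (rows), with TGF-beta in the 3 left columns and without it in the 3 right ones, with a dot where the adjusted p was under 0.05. The column of both siRNAs with TGF-beta holds 7 dots, all on red cells, with Bnip3 at 1.03 and Egln3 at 0.94 the darkest of these.

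With TGF-beta, the 7 members that both siRNAs raised were Pfkfb3, Eno2, Pdk1, Slc16a1, Slc16a3, Bnip3 and Egln3. Bnip3 had 41.8 and 38.0 CPM under both siRNAs and 17.8 and 21.3 CPM under control siRNA, a 2.04-fold difference (log2 change 1.03 ± 0.12 (SE), adjusted p = 2.25e-04). Egln3 had 10.6 and 9.55 CPM under both siRNAs and 4.52 and 5.84 CPM under control siRNA (log2 change 0.94 ± 0.15 (SE), adjusted p = 0.00182). The libraries of both groups were well separated for each gene. Eno2 had 45.4 and 45.4 CPM under both siRNAs and 24.9 and 29.4 CPM under control siRNA, and its log2 change was 0.74 ± 0.10 (SE), adjusted p = 6.13e-04. Pdk1 rose by 0.54 (adjusted p = 0.00488), Slc16a1 by 0.38 (adjusted p = 0.00457) and Slc16a3 by 0.66 (adjusted p = 0.0356) on the log2 scale. Without replicate 1 of control siRNA with TGF-beta the adjusted p was 0.0634 for Pdk1, 0.0540 for Slc16a1 and 0.231 for Slc16a3. Leaving out replicate 1 of both siRNAs with TGF-beta also ended the Slc16a1 call (adjusted p = 0.0507), and Slc16a3 lost its call without any 1 of the 4 libraries. Bnip3, Egln3, Eno2 and Pfkfb3 kept theirs in every alternative.

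PRMT1 siRNA alone, with TGF-beta, raised 3 of those genes by less. Bnip3 had 27.2 and 29.4 CPM under PRMT1 siRNA and 17.8 and 21.3 CPM under control siRNA (log2 change 0.53 ± 0.12 (SE), adjusted p = 0.0123, and 0.35 with length offsets). Eno2 rose by 0.47 (adjusted p = 0.00897) and Pfkfb3 by 0.38 (adjusted p = 0.0208) on the log2 scale. Without replicate 1 of control siRNA with TGF-beta all 3 calls were lost, at an adjusted p of 0.119 for Bnip3, 0.0940 for Eno2 and 0.145 for Pfkfb3. Leaving out replicate 2 of PRMT1 siRNA with TGF-beta also lost all 3, leaving out its replicate 1 lost Eno2 and Pfkfb3, and leaving out replicate 2 of control siRNA with TGF-beta lost Pfkfb3 (adjusted p = 0.0742). p53 siRNA alone, with TGF-beta, left Bnip3 at 18.7 and 23.6 CPM, which overlapped the control libraries (log2 change 0.11 ± 0.12, adjusted p = 0.535). The direct test of p53 siRNA added to PRMT1 siRNA, with TGF-beta, called 1 member, Pdk1, beside 0.452% of all genes. Pdk1 had 28.2 and 26.6 CPM under both siRNAs and 16.7 and 19.6 CPM under PRMT1 siRNA (log2 change 0.59 ± 0.10 (SE), adjusted p = 0.0320), and the call was lost on leaving out any 1 of these 4 libraries (adjusted p = 0.0876 to 0.476). For Bnip3 this difference was 0.50 ± 0.11 and for Egln3 0.62 ± 0.14, neither called (adjusted p = 0.104 and 0.104).

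Without TGF-beta, each siRNA call was lost on leaving out at least 1 library. p53 siRNA raised Slc16a3, Bnip3, Ndrg1 and the low-level Aldoc. Slc16a3 had 20.4 and 17.2 CPM under p53 siRNA and 11.7 and 9.38 CPM under control siRNA (log2 change 0.83 ± 0.19 (SE), adjusted p = 0.0433). Bnip3 had 38.1 and 35.1 CPM under p53 siRNA and 26.2 and 25.1 CPM under control siRNA (log2 change 0.51 ± 0.11 (SE), adjusted p = 0.0423). Ndrg1 had 89.4 and 90.9 CPM under p53 siRNA and 73.2 and 70.8 CPM under control siRNA, 1.25-fold (log2 change 0.32 ± 0.07 (SE), adjusted p = 0.0325), and Aldoc had 82 and 64 counts under p53 siRNA and 22 and 15 under control siRNA (adjusted p = 0.0228). Each of these calls was lost on leaving out any 1 library of the comparison. Their highest adjusted p in those fits was 0.369 for Slc16a3, 0.366 for Bnip3, 0.262 for Ndrg1 and 0.277 for Aldoc.

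Both siRNAs without TGF-beta raised Pfkp, Slc16a1, Slc16a3, Vegfa, Egln3 and Ndrg1. Egln3 had 10.9 and 9.40 CPM under both siRNAs and 6.77 and 5.998 CPM under control siRNA (log2 change 0.67 ± 0.14 (SE), adjusted p = 0.0247). Slc16a1 had 355 and 318 CPM under both siRNAs and 256 and 250.2 CPM under control siRNA (log2 change 0.41 ± 0.07 (SE), adjusted p = 0.00783). Slc16a3 rose by 0.78, Pfkp by 0.37, Ndrg1 by 0.34 and Vegfa by 0.31 on the log2 scale, at an adjusted p of 0.0409, 0.0301, 0.0181 and 0.0466. Leaving out replicate 1 or 2 of control siRNA or replicate 1 of both siRNAs ended all 6 calls, and leaving out replicate 2 of both siRNAs ended all but that of Slc16a1. Their highest adjusted p was 0.333 for Slc16a3, 0.242 for Egln3, 0.227 for Vegfa, 0.201 for Pfkp, 0.198 for Ndrg1 and 0.107 for Slc16a1. PRMT1 siRNA without TGF-beta lowered Pfkm (40.6 and 41.4 CPM under PRMT1 siRNA and 54.1 and 53.5 CPM under control siRNA, log2 change -0.39 ± 0.07 (SE), adjusted p = 0.00432). It raised Slc16a1 by 0.29 (adjusted p = 0.0231), and Aldoc fell to 2 and 4 counts, against 22 and 15 under control siRNA (adjusted p = 0.00821). Without replicate 1 of PRMT1 siRNA the adjusted p was 0.0679 for Pfkm, 0.169 for Slc16a1 and 0.104 for Aldoc. Pfkm was also lost without its replicate 2 (adjusted p = 0.0511), Aldoc without replicate 1 of control siRNA (adjusted p = 0.0648), and Slc16a1 without any 1 library. Adding p53 siRNA to PRMT1 siRNA without TGF-beta called 1 member, Ndrg1 (log2 change 0.34 ± 0.07 (SE), adjusted p = 0.0459), beside 0.865% of all genes, and that call too was lost on leaving out any 1 library (adjusted p = 0.235 to 0.399) or the low-count filter (adjusted p = 0.113).

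Whether the siRNAs altered the TGF-beta response itself was tested as an interaction, which compares the response under an siRNA with that under control siRNA. Pfkfb3 was called for both siRNAs and Ndrg1 for p53 siRNA. For PRMT1 siRNA edgeR called 0 of 31 members beside 2.08% of all genes, with 7 members at an unadjusted p under 0.05, and DESeq2 called 2. Without p53 siRNA plus TGF-beta replicate 2 edgeR called 10 there, beside 30.6% of all genes.

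The response of Pfkfb3 differed between both siRNAs and control siRNA by 0.94 ± 0.13 (SE) on the log2 scale (adjusted p = 0.00572), 1 of 31 members beside 1.26% of all genes. Under both siRNAs it had 92.1 and 93.6 CPM with TGF-beta and 77.1 and 81.9 CPM without, and under control siRNA 56.3 and 59.7 CPM with TGF-beta and 91.6 and 98.7 CPM without. The libraries with TGF-beta lay above the others in the first pair of groups and below them in the second. The call was kept in all 17 alternatives, with log2 differences from 0.899 to 0.996. With TGF-beta, both siRNAs against control siRNA gave 0.68 ± 0.10 (SE), adjusted p = 9.31e-04, and without it -0.26 ± 0.09 (adjusted p = 0.161). The interaction was 0.32 ± 0.13 (adjusted p = 0.203) for PRMT1 siRNA and 0.13 ± 0.13 (adjusted p = 0.570) for p53 siRNA alone.

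The response of Ndrg1 differed between p53 siRNA and control siRNA by -0.74 ± 0.10 (SE) on the log2 scale (adjusted p = 0.00639), 1 of 31 members beside 1.02% of all genes. Under p53 siRNA it had 52.1 and 56.2 CPM with TGF-beta and 89.4 and 90.9 CPM without, whereas under control siRNA it had 73.5 and 71.4 CPM with TGF-beta and 73.2 and 70.8 CPM without. The p53 siRNA libraries with TGF-beta were the lowest of all 16, while the control libraries of both conditions overlapped. p53 siRNA raised Ndrg1 without TGF-beta (0.32 ± 0.07) and lowered it with TGF-beta (-0.42 ± 0.07, adjusted p = 0.00672), the second call being lost without replicate 1 of control siRNA with TGF-beta (adjusted p = 0.0735) or when only the groups of the contrast were fitted (adjusted p = 0.695). The interaction was lost when only the 4 groups of the contrast were fitted (adjusted p = 0.3003) and kept in every other alternative. Under both siRNAs it was -0.28 ± 0.10 and not called (adjusted p = 0.279).

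Neighbouring genes of the pathway were counted from lists of general knowledge. The shares of all genes tested that TGF-beta raised and lowered, against which each list is to be read, were 16.3% and 16.2% under PRMT1 siRNA, 23.3% and 22.0% under p53 siRNA, 15% and 16.3% under both siRNAs, and 17.8% and 20.6% under control siRNA. Of 29 tested genes of glucose and pyruvate metabolism outside the members, TGF-beta raised 6 and lowered 7 under PRMT1 siRNA, 8 and 9 under p53 siRNA, 4 and 8 under both siRNAs, and 6 and 12 under control siRNA. The glucose transporter Slc2a3 fell in all 4, with 6.05 and 6.22 CPM with TGF-beta and 22.2 and 25.6 CPM without under control siRNA (log2 change -1.96 ± 0.14 (SE), adjusted p = 3.87e-07). Its log2 changes were -1.50 ± 0.12 under PRMT1 siRNA, -1.68 ± 0.13 under p53 siRNA and -1.41 ± 0.12 under both siRNAs, while Slc2a1 was not called with all 16 libraries. Ldhb, the lactate dehydrogenase subunit typical of heart, fell in all 4, by 1.16 under control siRNA (adjusted p = 2.96e-04), and Ldha was called in none with all 16 libraries. Pdp1, the phosphatase that reverses pyruvate dehydrogenase kinases, also fell in all 4, by 1.21 under control siRNA (adjusted p = 4.63e-06). With TGF-beta, Slc2a3 was higher under both siRNAs than under control siRNA by 0.98 ± 0.14 (adjusted p = 8.68e-04) and under PRMT1 siRNA by 0.86 ± 0.14 (adjusted p = 0.00227). In that condition both siRNAs raised 3 and lowered 3 of the 29 genes, beside 7.71% and 5.35% of all genes. PRMT1 siRNA raised 1 and lowered 2, beside 9.13% and 6.53%.

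Of 15 tested regulators of the HIF pathway, read against the same shares of all genes, TGF-beta raised 1 under each siRNA and lowered 5 under PRMT1 siRNA, 7 under p53 siRNA, 4 under both siRNAs and 5 under control siRNA. The one raised was Siah2, a ubiquitin ligase known to target EGLN proteins, by 0.82 under PRMT1 siRNA, 1.33 under p53 siRNA, 0.65 under both and 0.80 under control siRNA. Hif1a, the main HIF alpha subunit, was called only under p53 siRNA, where it had 413 and 269 CPM with TGF-beta and 522 and 502 CPM without (log2 change -0.59 ± 0.15 (SE), adjusted p = 0.00668), and the lowest value was that of the library that stood apart. Without that library the change was -0.31 ± 0.07 (adjusted p = 0.00276). With all 16 libraries the interaction for Hif1a was -0.38 ± 0.21 and not called (adjusted p = 0.315). Epas1, the HIF alpha subunit of endothelium and other tissues, fell in all 4, with 3.05 and 3.98 CPM with TGF-beta and 7.83 and 8.76 CPM without under control siRNA (adjusted p = 3.45e-04). Cited2, a HIF-induced inhibitor of HIF, was higher under PRMT1 siRNA than under control siRNA. The log2 change was 0.61 ± 0.09 with TGF-beta (adjusted p = 0.00112) and 0.52 ± 0.09 without (adjusted p = 0.00352). Cited2 was named for its low adjusted p. Of the 15 regulators, PRMT1 siRNA raised 1 and lowered 0 with TGF-beta, beside 9.13% and 6.53% of all genes. Without TGF-beta it raised 1 and lowered 1, beside 4.48% and 5.85%.

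Of 36 tested hypoxia-responsive genes outside the members, read against the same shares of all genes, TGF-beta raised 14 and lowered 9 under PRMT1 siRNA, 15 and 9 under p53 siRNA, 13 and 4 under both siRNAs, and 18 and 10 under control siRNA. Under control siRNA Plod2, a collagen lysyl hydroxylase gene, rose by 1.53 on the log2 scale (adjusted p = 2.75e-07). The transcriptional repressor gene Bhlhe40 rose in all 4, by 1.23 under both siRNAs and 1.58 under control siRNA. Plod2 also belongs to matrix remodelling, which TGF-beta is known to drive. Ak4, a mitochondrial adenylate kinase, averaged 4.36 CPM with TGF-beta and 28.7 CPM without under p53 siRNA, and 6.15 CPM with and 15.5 CPM without under control siRNA. Its interaction was -1.39 ± 0.14 for p53 siRNA (adjusted p = 0.00191) and 0.79 ± 0.13 for both siRNAs (adjusted p = 0.0125). Ak4 was named for its low adjusted p. Of the 36 genes, the p53 siRNA interaction was called higher for 0 and lower for 2, beside 1.02% of all genes in either direction. The interaction of both siRNAs was called higher for 2 and lower for 1, beside 1.26%. With TGF-beta, PRMT1 siRNA raised 8 and lowered 6 of the 36, beside 9.13% and 6.53% of all genes. In that condition p53 siRNA raised 0 and lowered 6, beside 2.82% and 2.39%, and both siRNAs raised 8 and lowered 8, beside 7.71% and 5.35%. Without TGF-beta the counts were 5 and 3 for PRMT1 siRNA, 2 and 0 for p53 siRNA and 2 and 1 for both. They lay beside 4.48% and 5.85%, 1.17% and 1.29%, and 2.31% and 2.14% of all genes. Of 11 tested genes through which p53 is known to act on metabolism, TGF-beta raised 4 and lowered 3 under PRMT1 siRNA. It raised 4 and lowered 4 under p53 siRNA, 2 and 4 under both siRNAs, and 5 and 4 under control siRNA. These are read against the same shares of all genes. p53 siRNA raised 0 and lowered 0 of the 11 in each TGF-beta condition, beside 5.21% of all genes with TGF-beta and 2.47% without. Both siRNAs raised 3 and lowered 0 with TGF-beta, beside 13.1%, and 0 and 0 without it, beside 4.45%.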

How the data were processed

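Poly(A)-enriched RNA of MEC1 cells was sequenced, per the labels' protocols. The deposited values are estimated counts per gene, not scaled for depth or length. TopHat2, Partek and mm10 are named in the submitters' processing notes, while versions, the annotation, the strand setting and counting options are not given in the sources used here. Of the nonzero values, 60.05% were within 0.01 of a whole number, and all were rounded. Library totals of 19617874 to 30759317 counts leave genes such as Car9 and Aldoc with few counts.

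Groups came from the siRNA and TGF-beta labels. Genes passing edgeR's filterByExpr were fitted over all 16 libraries with TMM scaling, 1 mean per group and the quasi-likelihood test (edgeR 4.0.16, R 4.3.3), with Benjamini-Hochberg adjustment over 15494 genes and calls at an adjusted p under 0.05. The 15 contrasts were the TGF-beta responses, siRNA effects, p53 siRNA added to PRMT1 siRNA, and interactions. The code was tested on simulated data.

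Alternatives were DESeq2 1.42.0, its median-ratio scaling in edgeR, no low-count filter, a fit limited to the contrast's own groups, the replicate number as a block, leaving out each library, offsets for transcript length, and adding near copies to their parent gene. Of 28 correlations of same-numbered deviations between groups (-0.40 to 0.25), 6 exceeded 0.1. Low correlations cannot exclude a shared culture or day, and the numbers are not said to mark one.

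Members and lists were chosen with earlier results of these data known. Genes named are the 32 members, the siRNA targets, Hif1a, Epas1, Ldhb, Slc2a3 and up to 4 genes per list and contrast with the lowest adjusted p.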

Additional observations from a re-analysis of the deposited data

Results flagged for a closer look

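For 2 members the response to TGF-beta differed between siRNA groups in the interaction test of edgeR's quasi-likelihood fit. For Ndrg1 the response under p53 siRNA minus that under control siRNA was -0.74 on the log2 scale (adjusted p = 0.00639). The 2 p53 siRNA libraries with TGF-beta were lower than the 2 without it, and the control siRNA libraries of both conditions overlapped. For Pfkfb3 the response under both siRNAs minus that under control siRNA was 0.94 (adjusted p = 0.00572). Its libraries with TGF-beta were higher than those without under both siRNAs and lower under control siRNA.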

How the results depend on the processing

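Of 82 member results called over the 15 comparisons, 32 kept their direction and call in every alternative tried and 37 in every fit that left out 1 library. Gapdh and Eno1, whose near copies hold many counts, have none of the 82 calls, so adding near copies, chosen after seeing the data, does not bear on calls for them. The replicate block kept 68 and lost 14, leaving 1 of 4 members for p53 siRNA without TGF-beta (Aldoc, with Slc16a3, Bnip3 and Ndrg1 lost at an adjusted p of 0.0677, 0.0681 and 0.0579) and 0 of 1 for p53 siRNA added to PRMT1 siRNA in either condition. With only the groups of the contrast, the counts called for the TGF-beta response were 23 under PRMT1 siRNA, 8 under p53 siRNA and 16 under both siRNAs. They were 14, 0 and 14 for PRMT1, p53 and both siRNAs with TGF-beta, 3 for both siRNAs without it, 12 and 9 for p53 siRNA added to PRMT1 siRNA with and without TGF-beta, and 11, 0 and 2 for the PRMT1, p53 and both siRNA interactions.

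Length offsets without p53 siRNA plus TGF-beta replicate 2 gave 23 and 19 for the response under PRMT1 and both siRNAs, 15, 5 and 13 for PRMT1, p53 and both siRNAs with TGF-beta, 9, 11 and 15 without it, 10 and 14 for the added p53 siRNA with and without TGF-beta, and 9, 10 and 4 for the interactions. With all 16 libraries they gave 5 and 3 for PRMT1 and p53 siRNA with TGF-beta, 3 and 4 for the added p53 siRNA, and 2, 3 and 3 for the interactions. DESeq2 gave 5 and 2 for PRMT1 and p53 siRNA with TGF-beta, 7 for p53 siRNA without it, 4 and 3 for the added p53 siRNA, and 2, 2 and 3 for the interactions. No low-count filter gave 2 for p53 siRNA with TGF-beta, 4 and 2 for the added p53 siRNA, and 3 and 3 for the PRMT1 and p53 interactions, and median-ratio scaling gave 2 for the added p53 siRNA without TGF-beta.

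Leaving out 1 library gave 6 to 20, 12 to 22, 5 to 17 and 11 to 19 for the response under PRMT1, p53, both and control siRNA. It gave 0 to 10, 0 to 16 and 4 to 12 for PRMT1, p53 and both siRNAs with TGF-beta, and 0 to 5, 0 to 8 and 0 to 14 without it. The added p53 siRNA gave 0 to 11 with TGF-beta and 0 to 15 without, and the interactions 0 to 10, 1 to 11 and 1 to 3. The common coefficient of variation in edgeR was 0.0604 without p53 siRNA plus TGF-beta replicate 2 and 0.1145 with it, and the fit without it tested 16131 genes.

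Directions reversed for 3 results that were not called in the full fit. Pfkl had -0.26 for the response under p53 siRNA with length offsets and 15 libraries, and for p53 siRNA with TGF-beta it ranged from -0.32 to 0.23 when 1 library was left out, the upper value without p53 siRNA plus TGF-beta replicate 1. The p53 interaction of Tpi1 was -0.36 with length offsets and 15 libraries. The cause was not tested.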
